A study of Homo sapiens with 6 samples.

Results

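The genes described here are the receptor chains for the 3 classes of interferon and the 4 Janus kinases (JAKs) that work beneath cytokine receptors. They were chosen by name, as IFNAR1 and IFNAR2 for type I, IFNGR1 and IFNGR2 for type II, IFNLR1 and IL10RB for type III interferon, and JAK1, JAK2, JAK3 and TYK2. Each was matched to its Ensembl ID, which found all 10 among the 62710 genes in the table. RNA was measured by sequencing in HT1080 cells, an established human fibrosarcoma line, to see how a day of interferon beta (IFNβ) changes gene expression in a tumor cell that the study examined for ferroptosis. There were 3 untreated libraries and 3 libraries of cells given 20 ng/mL human IFNβ for 24 h, all from the same line and culture medium. The sample labels name human IFNβ, as does the cell culture text of the study for every line but 4T1, whereas its text on RNA sequencing names mouse IFNβ.

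Interferons signal by bringing 2 receptor chains together at the cell surface, each of which carries a JAK on its inner side. Type I interferons, to which IFNβ belongs, use IFNAR1 with TYK2 and IFNAR2 with JAK1, type II interferon (IFNγ) uses IFNGR1 with JAK1 and IFNGR2 with JAK2, and type III interferons use IFNLR1 with JAK1 and IL10RB with TYK2. The kinases phosphorylate STAT proteins, which carry the signal to the nucleus and turn on interferon-stimulated genes.

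In HT1080 cells both chains for IFNγ, the IFNAR1 chain and 3 of the kinases were clearly expressed, IFNAR2 and IL10RB were low, JAK3 was nearly undetected and IFNLR1 was listed at 0. After IFNβ, JAK2, JAK1, IFNGR1 and TYK2 rose, by 1.40, 1.30, 1.21 and 1.12 times in the ratio of means, and IFNAR1 fell to 0.865 of its untreated level. IFNGR2, IL10RB and IFNAR2 did not pass the test, and none of the 8 members tested reached a log2 fold change of 1. In the same libraries the interferon-stimulated gene IFIT1 went from 0.916 ± 0.0380 to 413 ± 3.30 FPKM (SD, n = 3). FPKM divides a gene's sequenced fragments by its length and by the library's size, so levels can be set side by side between genes as far as the gene lengths used hold.

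Each library rested on between 22848104 and 32915500 fragments, a number recovered from the steps between the FPKM values. The libraries of a group carry replicate numbers, but no label says whether they came from separate cultures. The study's statistics text describes its in vitro results in general as coming from independent biological replicates, without naming the sequencing libraries. The p-values measure the spread between these libraries only. All 8 markers of HT1080 and mesenchymal cells averaged over 1 FPKM, with sums of 1187 to 1259 FPKM in untreated and 1098 to 1150 FPKM in IFNβ-treated libraries. Of 7 leukocyte markers only CSF1R did so, at 0.908 to 1.10 FPKM, and the leukocyte sum was 1.16 to 1.27 and 1.21 to 1.28 FPKM. The pan-leukocyte marker PTPRC reached at most 0.0126 FPKM, and no gene of the epithelial and endothelial lists exceeded 0.327 FPKM.

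The promoter sequences of the members were searched for the motifs through which interferon signals reach genes. The interferon-stimulated response element (ISRE), bound by STAT proteins together with IRF9, was searched as GAAANNGAAA, and the gamma-activated site (GAS), bound by STAT dimers, as TTCNNNGAA, where N is any base, on both strands. The window ran from 250 bases before to 50 after a RefSeq start in GRCh38.p14, and a gene could have several, such as 4 for JAK2. IFNAR2 had none, so the search covered 9 of the 10 members. A gene counted as matching if any of its windows did, whereas the shares of all promoters are per window. No window of these 9 members held the ISRE letters, which 3.57% of 35116 promoters hold, so their absence is not particular to the members. The letters were found for 4 of 5 reference genes. These were picked as interferon-stimulated, so nothing is drawn from the contrast. The GAS letters, present in 7.66% of promoters, were found for IFNLR1 and IL10RB, and for 2 of the reference genes. The 250 bases before a start are shown for the member called lower and for the 2 with the largest fold among those called higher. These stretches run 5′ to 3′ on the gene's own strand and are in lower case throughout because they hold no match. They are chr21:33324145-33324394, plus strand, for IFNAR1, chr1:64966550-64966799, minus strand, for JAK1 and chr9:4984140-4984389, plus strand, for JAK2.
IFNAR1: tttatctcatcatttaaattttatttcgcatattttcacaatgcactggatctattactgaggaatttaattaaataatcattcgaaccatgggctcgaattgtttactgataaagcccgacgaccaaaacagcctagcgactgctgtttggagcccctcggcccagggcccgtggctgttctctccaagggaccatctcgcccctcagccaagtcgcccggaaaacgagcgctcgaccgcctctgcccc
JAK1: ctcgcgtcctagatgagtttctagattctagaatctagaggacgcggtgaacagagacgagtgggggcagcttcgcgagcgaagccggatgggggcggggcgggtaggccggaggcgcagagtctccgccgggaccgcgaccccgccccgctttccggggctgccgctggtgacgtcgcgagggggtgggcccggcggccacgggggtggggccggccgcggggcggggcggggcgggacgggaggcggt
JAK2: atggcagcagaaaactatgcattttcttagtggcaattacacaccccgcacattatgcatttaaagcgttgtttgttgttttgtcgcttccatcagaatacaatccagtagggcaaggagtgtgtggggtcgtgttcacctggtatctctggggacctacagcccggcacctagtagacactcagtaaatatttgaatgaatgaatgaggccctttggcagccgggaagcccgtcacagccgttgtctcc

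For comparison, shorter stretches are shown around the matches in the remaining members and in a pair of reference genes, with the matching bases in capitals. IFIT1 (chr10:89392487-89392536, plus strand) and ISG15 (chr1:1013364-1013413, plus strand) hold ISRE letters, which in IFIT1 read on the opposite strand. IFNLR1 (chr1:24187498-24187539, minus strand) and IL10RB (chr21:33266368-33266397, plus strand) hold GAS letters, in IL10RB just after the start.
IFIT1: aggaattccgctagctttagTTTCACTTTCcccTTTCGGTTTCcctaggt
ISG15: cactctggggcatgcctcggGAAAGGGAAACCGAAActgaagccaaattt
IFNLR1: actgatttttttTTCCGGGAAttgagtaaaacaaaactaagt
IL10RB: tctccgctggTTCCCGGAAgccgccgcgga
A match is a description of the letters only, and binding was not measured in these libraries.

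Of the 10 members, 8 reached a mean of 0.1 FPKM over the 6 libraries and were tested with limma on log2(FPKM + 0.1) together with all other such genes, 20716 in all. At a Benjamini-Hochberg adjusted p-value under 0.05, 4 of the 8 were higher after IFNβ, against 15.2% of all genes tested, and 1 was lower, against 17.5%. In either direction 5 of 8 were called, against 32.7% of all genes, and that share rose with the level, from 9.78% of genes at 0.1 to 1 FPKM to 35.7% at 1 to 5 FPKM and 54.9% at 5 to 20 FPKM. Of the 5 members between 5 and 20 FPKM 4 were called, JAK2 was called between 1 and 5 FPKM, and neither of the 2 members under 1 FPKM was. None passed when a log2 fold change of at least 1 was also required, which 4.22% of all genes did. The groups did not overlap for 6 of the 8, with IFNβ above for 5 and below for 1, against 46.6% of all genes in either direction. The median log2 fold change of the 8 was 0.22, from -0.20 to 0.47, beside 0.00017 for all genes tested.

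IFNAR1 (ENSG00000142166, chr21:33324477-33359862, plus strand) encodes the type I chain that carries TYK2 and that is taken into the cell and degraded after interferon binds. IFNAR1 was at 5.91, 5.41 and 5.37 FPKM in the untreated libraries and at 4.75, 4.86 and 4.83 FPKM after IFNβ. All 3 treated libraries lay below all 3 untreated ones, and the first untreated library was the highest of the 6. The mean went from 5.57 ± 0.301 to 4.81 ± 0.0571 FPKM (SD, n = 3), and on the log2 scale IFNAR1 fell by 0.20 (SE 0.0462, 95% confidence interval -0.32 to -0.093, limma adjusted p = 0.016). It rested on 7408 untreated and 6383 treated fragments. Without the first IFNβ library the difference was still -0.20, with an adjusted p from limma of 0.055, and without each of the others it was between 0.027 and 0.049. In a bulk library, fewer cells with a transcript and less of it per cell cannot be told apart.

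IFNAR2 (ENSG00000159110, chr21:33229901-33265675, plus strand) encodes the partner chain, which binds IFNβ tightly and carries JAK1. It stood at 0.189, 0.197 and 0.193 FPKM without and at 0.269, 0.263 and 0.262 FPKM with IFNβ. The groups did not overlap, and the ratio of means was 1.37, but on log2(FPKM + 0.1), which understates the change of so low a gene, the difference was 0.32 (SE 0.181, 95% confidence interval -0.12 to 0.75) with a limma adjusted p of 0.25. The limma fit used here gives low genes a larger expected spread, with a median SE of 0.304 for genes at 0.1 to 1 FPKM. Without that trend the adjusted p for IFNAR2 was 0.0031, and limma-voom on the recovered fragments gave a log2 fold change of 0.45 with an adjusted p of 0.021.

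The fragments behind IFNAR2 were 60, 81 and 88 in untreated and 115, 91 and 105 in treated libraries. Their sums of 229 and 311, scaled by the library totals, gave a ratio of 1.37 with a 95% interval of 1.15 to 1.63 that covers counting error only. The 3 values of each group lay closer together than counting alone gives on average, with a coefficient of variation of 1.94% against 11.4% in untreated and of 1.52% against 9.82% in treated libraries. In GENCODE release 29, 83.2% of the exon bases of IFNAR2 are shared with other genes, 44.2% with an IFNAR2-IL10RB readthrough transcript on the same strand and 39.1% with IL10RB-DT on the other. The readthrough gene had at most 4 and IL10RB-DT at most 7 fragments in a library. How the counting assigned fragments from shared bases is not given in the sources used here, and its part in the low level of IFNAR2 was not tested.

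IFNGR1 (ENSG00000027697, chr6:137197484-137219449, minus strand) encodes the chain that binds IFNγ. Untreated cells had 7.49, 7.75 and 7.03 FPKM of IFNGR1, and treated cells had 8.13, 9.40 and 9.48 FPKM. The treated libraries were all higher, the first of them by little. From means of 7.42 ± 0.365 and 9.00 ± 0.753 FPKM (SD, n = 3), IFNGR1 rose by 0.27 on the log2 scale (SE 0.0692, 95% confidence interval 0.11 to 0.44, limma adjusted p = 0.025). The call was lost without IFNβ library 2 or 3 (limma adjusted p = 0.082 and 0.08, log2 fold change 0.24 and 0.23) and without untreated library 1 or 3 (0.06 and 0.078, log2 fold change 0.28 and 0.24). It was also lost in the fit without trend, at a limma adjusted p of 0.059.

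IFNGR2 (ENSG00000159128, chr21:33402896-33479348, plus strand), the chain that brings JAK2 to the IFNγ receptor, had 13.1, 13.5 and 12.4 FPKM without and 12.1, 13.9 and 12.8 FPKM with IFNβ. The groups overlapped fully. Its log2 difference was -0.01 (SE 0.0588, limma adjusted p = 0.92), and the 95% interval of its fold on this scale ran from 0.900 to 1.10. The antisense neighbour TMEM50B shares 12.8% of the exon bases of IFNGR2, and whether the counting used strand is not given in the sources used here.

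IFNLR1 (ENSG00000185436, chr1:24154157-24187959, minus strand), the chain particular to type III interferons, was listed at 0 FPKM in all 6 libraries. With its exon length in release 29, 3 fragments, the upper 95% limit for a count of 0, would have been 0.0185 to 0.0267 FPKM in a single library. A level below that cannot be told from 0 in that library alone. The limit for the 6 libraries together is lower and was not computed. IL10RB (ENSG00000243646, chr21:33266358-33310187, plus strand) encodes the chain that type III interferons share with the receptors for IL-10 and IL-22. It had 0.0709, 0.118 and 0.114 FPKM in untreated and 0.0607, 0.135 and 0.108 FPKM in treated libraries. In both groups the first library was the lowest and the ranges overlapped. Its log2 difference was -0.0064 (SE 0.292, limma adjusted p = 0.99), with a 95% interval of the fold from 0.611 to 1.62, and its 13 to 30 fragments per library leave changes within that interval undetectable. A further 38.1% of its exon bases are shared with the readthrough transcript.

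JAK1 (ENSG00000162434, chr1:64833229-64966504, minus strand) is the kinase that all 3 receptor classes use. Its level was 12.7, 12.1 and 12.1 FPKM in untreated and 15.8, 16.2 and 16.3 FPKM in treated libraries. The groups were far apart compared with their spread, with means of 12.3 ± 0.327 and 16.1 ± 0.275 FPKM (SD, n = 3). JAK1 rose by 0.38 on the log2 scale (SE 0.0283, 95% confidence interval 0.31 to 0.45, limma adjusted p = 0.00016), on 3824 to 6394 fragments per library, and its adjusted p stayed between 0.00042 and 0.0017 when single libraries were left out.

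JAK2 (ENSG00000096968, chr9:4984390-5128183, plus strand) serves IFNGR2 and many receptors for growth factors and blood cell hormones. Untreated libraries had 2.78, 2.36 and 2.64 FPKM of JAK2, and treated libraries had 3.58, 3.72 and 3.56 FPKM. The lowest treated library was above the highest untreated one, and the treated libraries were the more uniform. With means of 2.59 ± 0.215 and 3.62 ± 0.0844 FPKM (SD, n = 3), JAK2 had the largest log2 fold change of the 8 members tested, 0.47 (SE 0.0682, 95% confidence interval 0.30 to 0.63, limma adjusted p = 0.0028).

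TYK2 (ENSG00000105397, chr19:10350529-10380676, minus strand), the kinase held by IFNAR1 and IL10RB, had 10.4, 10.1 and 10.0 FPKM without and 11.5, 11.2 and 11.4 FPKM with IFNβ. The groups were separate but close. The means were 10.2 ± 0.181 and 11.4 ± 0.153 FPKM (SD, n = 3), and the rise was 0.16 on the log2 scale (SE 0.0257, 95% confidence interval 0.10 to 0.22, limma adjusted p = 0.0039), the smallest among the members called higher.

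JAK3 (ENSG00000105639, chr19:17824780-17848071, minus strand), a kinase of leukocytes that works with the common gamma chain of interleukin receptors, had 1, 0 and 0 fragments in untreated and 0, 1 and 6 fragments in treated libraries. In FPKM these were 0.00523, 0 and 0 against 0, 0.00478 and 0.0248, and JAK3 was below the level tested. The third treated library held 6 of the 7 treated fragments. The ratio of the summed fragments, scaled by library totals, was 7.06 with a 95% counting interval of 0.907 to 318, which includes no difference.

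**Figure D1:**
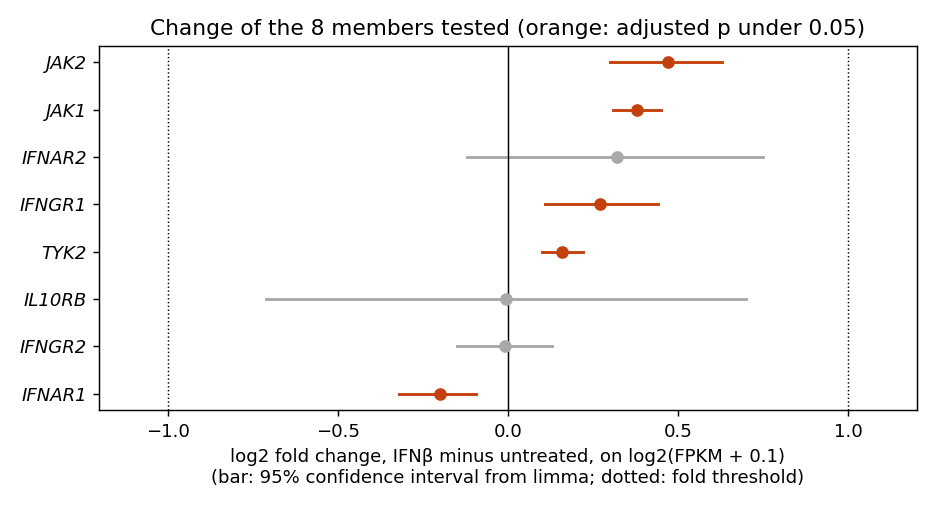
Log2 fold change of the 8 members tested (x axis, IFNβ minus untreated, on log2(FPKM + 0.1)) with 95% confidence intervals from limma, orange where the adjusted p is under 0.05 and dotted lines at the fold threshold. The estimates run from -0.20 for IFNAR1 to 0.47 for JAK2, and the intervals of IFNAR2 and IL10RB are the widest.

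On the FPKM scale the untreated order from high to low was IFNGR2, JAK1, TYK2, IFNGR1, IFNAR1, JAK2, IFNAR2, IL10RB, JAK3 and IFNLR1. IFNGR2 and JAK1 overlapped, as did JAK3 and IFNLR1, and every other neighbour in that order was separated by more than the range of its 3 libraries. After IFNβ, JAK1 lay above IFNGR2 with no overlap, and the order was otherwise the same. The order rests on the gene lengths used for the FPKM, which for several members are longer than the exon lengths of GENCODE release 29, 15676 against 6301 bases for IFNAR1, 13865 against 4614 for IFNAR2 and 13174 against 6317 for JAK1. With the release 29 lengths, a choice made after seeing the data, the untreated order was JAK1 (25.7 FPKM), IFNAR1 (13.8), TYK2 (12.8), IFNGR2 (11.2), IFNGR1 (8.04), JAK2 (3.32), IFNAR2 (0.580) and IL10RB (0.178). IFNAR2 and IL10RB were the lowest of the 8 members tested under either length, and the ratio of a gene between groups does not depend on its length.

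The balance between partners was examined as ratios of FPKM within a library, which do not depend on how libraries are scaled. IFNAR1 to IFNAR2 was 31.2, 27.5 and 27.9 in untreated and 17.6, 18.5 and 18.4 in treated libraries. In these libraries the type I pair differed less in level after IFNβ, with means of 28.9 ± 2.06 and 18.2 ± 0.478 (SD, n = 3) and a log2 difference of -0.66. This ratio rests on 60 to 115 fragments of IFNAR2 per library. IFNAR2 itself was not called, and most of its exon bases are shared with other genes. IFNGR1 to IFNGR2 was 0.573, 0.573 and 0.565 without and 0.674, 0.674 and 0.741 with IFNβ, a log2 difference of 0.29. TYK2 to JAK1 was 0.816, 0.834 and 0.825 without and 0.731, 0.692 and 0.703 with IFNβ, a log2 difference of -0.22. Neither of these pairs overlapped between groups. JAK2 to JAK1 was 0.219, 0.194 and 0.217 against 0.227, 0.229 and 0.219, with overlap and a log2 difference of 0.10. By exact two-sided permutation tests the p was 0.2 for JAK2 to JAK1 (0.2 adjusted over the 4 ratios) and 0.1 for each of the other three (0.133 adjusted), and 0.10 is the smallest p that 3 against 3 libraries can give. The levels of these ratios rest on the gene lengths. With release 29 lengths, chosen after seeing the data, the untreated mean was 0.497 instead of 0.825 for TYK2 to JAK1 and 0.129 instead of 0.210 for JAK2 to JAK1, while the log2 differences between groups do not depend on length. The ratio of IFNLR1 to IL10RB could not be formed because IFNLR1 was listed at 0.

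Of the members, 4 lie side by side on chromosome 21 within 249 kb, in the order IFNAR2, IL10RB, IFNAR1 and IFNGR2 (chr21:33229901-33479348, GRCh38, GENCODE release 29). Of these 4 only IFNAR1 was called, and the log2 estimates of IFNAR2, IL10RB and IFNGR2 were 0.32, -0.0064 and -0.01. Their intervals, -0.12 to 0.75, -0.71 to 0.70 and -0.15 to 0.13, overlap that of IFNAR1 for IL10RB and IFNGR2 and, by little, for IFNAR2, and beyond the IFNAR1 to IFNAR2 ratio above, differences between the 4 were not tested. Of 10 genes flanking them, 8 were tested, with a median log2 fold change of -0.092. None was higher (1 after quantile normalization), against 15.2% of all genes tested, and 3 were lower, against 17.5%. Those 3 were GART, an enzyme of purine synthesis (-0.12, limma adjusted p = 0.0027), TMEM50B (-0.19, 0.029) and PAXBP1 (-0.14, 0.031). Without the first or second library of either group only 1 of the flanking genes was lower. IFNAR1, at -0.20, was thus close in size to these neighbours, and the difference between them was not tested.

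**Figure D2:**
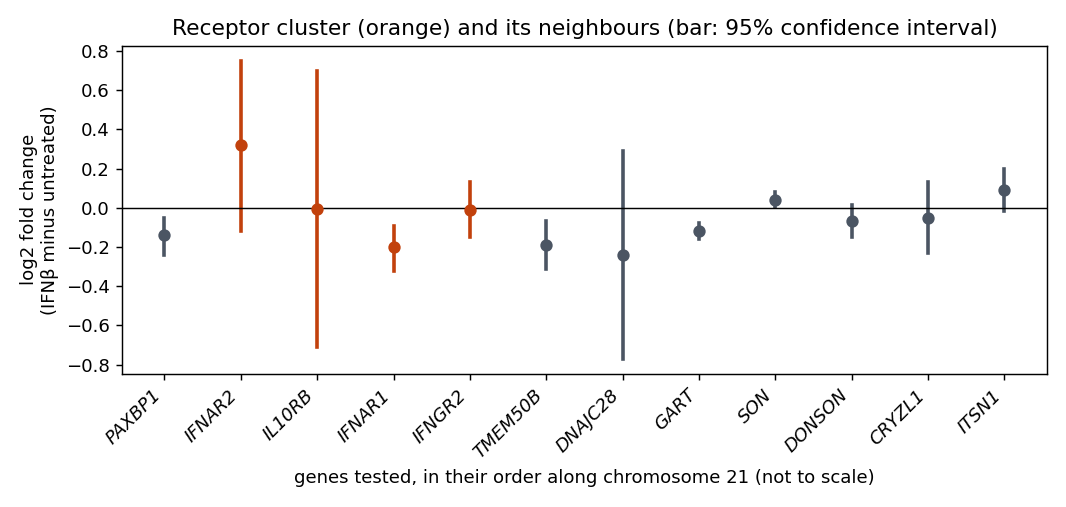
Log2 fold change (y axis, IFNβ minus untreated) with 95% confidence intervals for the receptor genes of chromosome 21 (orange) and the flanking genes tested (grey), in chromosomal order on the x axis and not to scale. IFNAR1 at -0.20 is the only one of the 4 receptor genes whose interval lies wholly below 0.

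The members were then set beside other parts of the pathway. Of 36 chains of other receptors that signal through JAKs, 20 were tested. Of these 5 were higher, against 15.2% of all genes tested, and 4 were lower, against 17.5%. The median log2 fold change of the 20 was -0.011 against 0.22 for the members. Of the 20, 3 passed the fold threshold, as did 4.22% of all genes. IL22RA1, which pairs with IL10RB to form the IL-22 receptor, went from 0.124, 0.120 and 0.140 to 1.30, 1.83 and 1.50 FPKM (log2 fold change 2.84, limma adjusted p = 5.8e-05), while IL10RB had a mean of 0.101 FPKM in both groups. IL15RA, which presents IL-15, rose from a mean of 2.67 to 11.5 FPKM (2.07, 1.1e-05), and IL12RB1, a chain that uses TYK2, from 0.0414 to 0.366 FPKM (1.71, 0.0035). IL12RB1 had as few as 3 fragments in a library. It reached the 0.1 FPKM needed for testing only through the treated libraries, where it was high, so nothing is drawn from its call. The counts of 5 higher and of 3 past the fold threshold include it. IL6ST, the signalling chain shared by the IL-6 family, IL6R and IL4R fell by 0.25, 0.86 and 0.34 on the log2 scale, and OSMR rose by 0.23, with limma adjusted p-values from 0.00029 to 0.0026.

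Downstream of the kinases, STAT2 went from 3.88 to 40.6 FPKM (log2 fold change 3.35, limma adjusted p = 8.5e-09) and IRF9 from 0.136 to 1.53 FPKM (2.79, 4.9e-05), while STAT6 and STAT3 rose by 0.50 and 0.68. STAT5B was lower (-0.16, limma adjusted p = 0.028), a call lost on leaving out any library but the first untreated one. All 5 interferon-stimulated reference genes rose past the fold threshold, with a median of 7.70. Of 19 inhibitors of receptor and JAK signalling, 17 were tested, with a median of -0.029. Of these 3 were higher, against 15.2% of all genes tested, and 6 were lower, against 17.5%. The count lower was 3 without the second IFNβ library or without any 1 of the untreated libraries. USP18, which binds IFNAR2 and displaces JAK1, went from 0.866, 0.560 and 0.653 to 65.8, 65.2 and 64.4 FPKM (6.38, limma adjusted p = 5.2e-07), and SOCS1, which blocks JAK activity, from a mean of 1.81 to 4.11 FPKM (1.15, 0.00049). SOCS5 was also higher (0.33), and the phosphatases PTPN11 (-0.63) and PTPN2 (-0.24) were lower.

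Among 7 genes of IFNAR1 turnover, PRKD2, a kinase that prepares IFNAR1 for ubiquitination, rose from 5.40 to 18.4 FPKM (log2 fold change 1.75, limma adjusted p = 7e-06) and FBXW11, a subunit of the ligase for IFNAR1, fell by 0.28 (0.00065). The other 5 were not called, and the median of the 7 was -0.028. Of the 21 interferon genes, the ligands of these receptors, 17 were listed at 0 in every library, IFNB1 had at most 1 fragment, and IFNL1 had at most 2, in treated libraries only. IFNE, a type I interferon, was the only one tested, at means of 0.631 and 0.703 FPKM (0.17, limma adjusted p = 0.69). Its log2 difference was -0.10 without the first and 0.38 without the third untreated library, and 0.037 without the first IFNβ library.

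**Figure D3:**
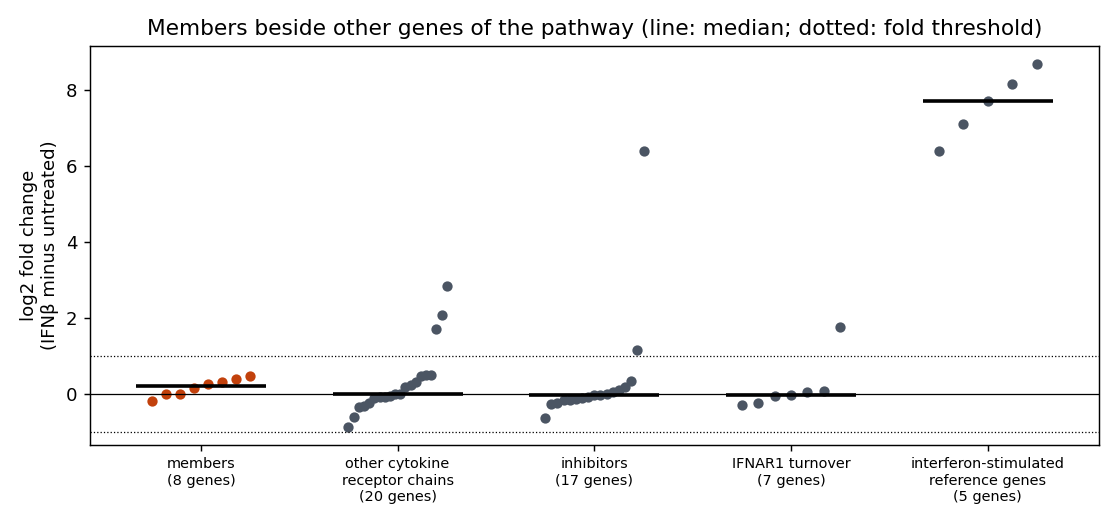
Log2 fold change (y axis, IFNβ minus untreated) of each gene tested among the interferon receptor chains and Janus kinases (members, orange) and 4 lists of other pathway genes (grey), with a line at each median and dotted lines at the fold threshold. The 8 members span -0.20 to 0.47, inside the dotted lines, while 3 other receptor chains, USP18, SOCS1, PRKD2 and the reference genes lie above them. Of these chains, IL12RB1 was tested only through its high treated values.

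For the 2 members with the largest differences on log2(FPKM + 0.1), JAK2 and JAK1, the genes most alike in pattern were sought, with the untreated mean of each gene subtracted so that its level does not count. The measure was the Euclidean distance of these log2 differences over the 6 libraries, among 11984 genes with a mean of at least 1 FPKM. For JAK2 they were SFXN5, AIFM2 and LRATD2, at distances of 0.0760, 0.0767 and 0.0943. AIFM2, which encodes the ferroptosis suppressor FSP1, had means of 4.50 and 6.24 FPKM. Its log2 difference was 0.46, and that of SFXN5 and of LRATD2 was 0.50. Among so many genes some lie close to any change of this size, and a link to JAK2 was not tested. For JAK1 they were ITGA5, ZHX1 and RCN1, at 0.0325, 0.0379 and 0.0415, and ITGA5, an integrin subunit, had means of 97.6 and 127 FPKM.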

How the data were processed

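RNA of 3 untreated and 3 IFNβ-treated HT1080 libraries was measured. The authors deposited 1 FPKM value for each gene and library, with no pooling. The submitters' processing notes name fastp, HISAT2, StringTie and GRCh38, without versions. The annotation and strandedness are not given in the sources used here. GENCODE release 29, which gave the printed locations, lacks 4436 of the IDs, and the recovered lengths of 15611 of 32881 genes equal its exon lengths.

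The authors used DESeq2, which needs counts. Because the deposited values were FPKM and not counts, limma (version 3.58.1, R 4.3.3) took its place in the main test. Fragments recovered from the FPKM, as described below, entered a fit only in limma-voom, an alternative. Genes averaging at least 0.1 FPKM were fitted with lmFit on log2(FPKM + 0.1), with no covariate, and eBayes was run with its intensity trend. Calls had a Benjamini-Hochberg adjusted p under 0.05 over all genes tested. A second rule also asked for a log2 fold change of 1 or more in size. Whole fragments, within a tolerance of 0.01, were recovered from the FPKM steps for 100% of the 35303 genes above 0. They sum to 99.67% to 99.68% of each library's number, and intervals from them cover counting error only. Replicates differed by more than counting error (chi-square divided by its degrees of freedom, 1.76 to 3.16). Ratios were tested by exact permutation. Python 3.11.15 (pandas 2.3.3, numpy 2.4.6, scipy 1.17.1) did the other steps, and the fit was tested on simulated data.

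For the list of STATs and partners, only values of single genes are given, and the rest of it is not reported here. The members and lists were chosen with earlier results of these data known. Named genes were all members, the genes of each list past the fold threshold and up to 4 further with the lowest adjusted p, and the 3 genes nearest to each of 2 members. In addition, IFNB1, IFNL1 and the markers given were named after their values were seen. Alternatives were pseudocounts of 1 and 0.01, no filter and a filter at 1 FPKM, 3 rescalings, eBayes without trend, limma-voom, the replicate block, and each library left out.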

Additional observations from a re-analysis of the deposited data

How the results depend on the processing

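JAK1, JAK2 and TYK2 were called higher under all 10 other settings and with each of the 6 libraries left out, IFNGR1 under 9 of 10 and 2 of 6, and IFNAR1 lower under 10 of 10 and 5 of 6. IFNAR2 was called under 2 of 9 other settings. The count of members lower was 0 to 1 with single libraries left out, 0 without the first IFNβ library. The count of all genes past the fold threshold was 875, and was 304 with a pseudocount of 1 and 425 among genes averaging at least 1 FPKM. The log2 difference of IFNAR1 to IFNAR2 was -0.52 instead of -0.66 with a pseudocount of 0.1 on both genes. The median over all genes, on the log2 scale, was moved by rescaling to between -0.060 (quantile) and 0.012 (equal totals), and higher genes made up 46.5% of the calls, 39.2% after quantile normalization and 49.1% with equal totals. No called result changed direction. Estimates near 0 changed sign, for IFNGR2 between -0.065 and 0.038, for IL10RB between -0.30 and 0.15 and for IFNE to -0.10 without the first untreated library, and the median of the other receptor chains was 0.13 with no filter. IL10RB, with a mean of 0.101 FPKM, fell under the filter when any of 4 libraries was left out. Depth limits IFNAR2, IL10RB, JAK3 and IFNLR1, which had 0 to 115 fragments per library.

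Same-numbered libraries did not deviate together, with correlations of 0.014, 0.023 and 0.031, each the highest for its own number. With the replicate block, 2759 genes were higher and 3310 lower, against 3153 and 3625, and 829 passed the fold threshold. Of the members 4 were higher and 1 lower, as before, with limma adjusted p-values of 0.045 for IFNAR1 and 0.045 for IFNGR1. The calls of STAT5B and TMEM50B were lost. The lower calls went from 6 to 3 among the inhibitors, from 3 to 2 among the chromosome 21 neighbours and from 4 to 3 among the other receptor chains.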
